A study of Apis mellifera with 24 samples.

Results

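Laid eggs of the honey bee, Apis mellifera, were compared with the ovaries of laying queens for the piRNAs that map to transposable elements (TEs) and to genes. The comparison used the 2 columns named for these tissues in each of 4 count tables, which hold piRNAs in the sense and in the antisense direction of TE entries and of genes. These columns stand for 11 of the 24 libraries of the series. The egg column stands for 8 libraries of eggs collected less than 24 h after laying, 2 each of eggs labelled Mated queen Fertilised, Mated queen Unfertilised, Virgin queen Drone cell and Virgin queen Worker cell. The virgin queens were sisters that had been narcotised with carbon dioxide to induce laying, and every egg sample pooled many eggs. The ovary column stands for 3 libraries of ovaries dissected from adult laying queens that had mated naturally. The tables give 1 pooled column per tissue, so neither the spread between libraries nor the 4 kinds of egg could be examined. All differences below are differences between 2 pooled columns with no replicate check, and no test or p-value is given. The ovary libraries were run on another flow cell than the egg libraries, and eggs of virgin and of mated queens were on different flow cells. The paper gives other collection dates for the ovaries than for the eggs. Tissue thus cannot be told apart from sequencing run, collection date or the queens sampled. The tables hold no mRNA levels, so the labelled tissues could not be checked against marker genes.

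piRNAs are small RNAs that guide PIWI proteins, a branch of the Argonaute family, to matching transcripts and loci. In animal germlines they are best known for silencing transposable elements. Many are cut from long precursors transcribed from discrete loci called piRNA clusters, often from a single strand. A read antisense to a TE or gene can pair with its transcript, whereas a sense read may derive from that transcript or from a cluster lying in the same orientation. In Drosophila, mothers load piRNAs made in the ovary into the oocyte.

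The tables listed 34760 TE entries and 15313 genes. Eggs held 99262537 piRNA counts over the 4 tables and ovaries 64175879. Sense counts on TEs made up most of both columns, with 79489662 in eggs and 51173095 in ovaries. TE antisense counts were 9266109 in eggs and 6472464 in ovaries. Genes held 5461039 sense and 5045727 antisense counts in eggs, and 3261964 sense and 3268356 antisense counts in ovaries. At this depth a TE entry with no sense count in eggs could still hold up to 3.77e-06% of the sense TE piRNAs, and a gene with none in ovaries up to 9.20e-05% of the sense gene piRNAs. Intervals given below are 95% limits that cover counting error only, since PCR copies of a molecule could not be recognised.

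The summed TE and gene counts were divided between TEs and genes almost identically in eggs and ovaries. Reads lying on a TE and on a gene can stand in both a TE and a gene table. Reads on neither are absent from these sums. The values are therefore shares of summed counts and not of all piRNAs. For maternal tissues the paper reports a lower share of piRNA-length reads on TEs. TEs took 89.4% (Wilson interval 89.41 to 89.42) of the counts in eggs and 89.8% (89.82 to 89.83) in ovaries. Of the TE counts, 89.6% in eggs and 88.8% in ovaries were sense. Summed gene counts were split about evenly between the directions in both tissues, with 52.0% sense in eggs and 49.95% in ovaries. This rested on 1 gene, GB50405, without which 29.4% and 28.7% were sense. Single genes were mostly not even. Over the 338 genes with at least 100 counts in each tissue, the median antisense share was 7.32% in eggs and 7.40% in ovaries. Retrotransposons, which copy themselves through an RNA intermediate, held 89.9% of the counts on classed TEs in eggs and 89.3% in ovaries. The DNA transposons, which move by cutting and pasting, differed slightly by direction. Their sense counts were 5.33% of classed TE counts in eggs and 5.21% in ovaries, and their antisense counts 4.77% and 5.54%. For comparison, the pooled columns of semen and testes gave TE shares of 47.2% and 54.7%, and that of the spermatheca, the organ in which queens store sperm, 81.0%.

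The same few TE entries dominated both tissues. In eggs and in ovaries alike, 4 entries held 50% of the sense TE counts and 12 entries held 90%. The leading 5 were the same in both and were all LARDs, large retrotransposon derivatives, which have no coding capacity of their own, lying side by side on the plus strand of chromosome 16 (266121 to 283373, Amel 4.5). The first of them, ms35558, held 12397255 counts in eggs and 8272632 in ovaries, or 15.6% and 16.2% of the sense TE counts. Its neighbour ms35559 held 10197208 and 6179623, or 12.8% and 12.1%. The next, ms35556 and ms35554, held 10182720 and 6171970, and 9031344 and 5557793. The fifth, ms35552, held 7430764 and 5407121, or 9.35% and 10.6%. The LARDs of chromosome 16 together took 77.4% of all TE counts in eggs and 76.4% in ovaries, close to the 75.1% in the spermatheca and far above the 12.02% in testes and the 4.24% in semen.

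Antisense TE piRNAs were spread over more entries, and here too the leading ones were shared. In each tissue 13 entries held 50% of the antisense counts, and 85 in eggs and 93 in ovaries held 90%. The LINE-type entry ms39515 on GroupUn20, a scaffold not placed on a chromosome, led both, with 847326 counts in eggs and 571994 in ovaries. ms46333 on GroupUn281 was the next in both, with 554103 and 358718. Further down, the order differed. The LARDs ms44566 and ms45695 held 422453 and 351135 in eggs against 217513 and 154691 in ovaries. The PiggyBac entry piggyBac-10_SM, a cut-and-paste element on the same scaffold, held 402308 counts in eggs against 160848 in ovaries, whereas ms45062 held 152522 against 314822 and ms44576 152822 against 313837. AMARI, a Mariner name that gathers copies from many places, held almost equal counts of 312084 and 322679.

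Ranks of all entries resembled each other more between eggs and ovaries than between eggs and any other tissue. Across the 1961 TE entries with at least 5 sense counts in eggs or ovaries, Spearman's rho between the 2 columns was 0.848, and it was 0.853 over 2003 entries for antisense counts, 0.693 over 4342 genes for sense counts and 0.718 over 1121 genes for antisense counts. These are descriptions across features, which are not independent replicates and share libraries and annotation. Against the spermatheca, the egg column gave 0.600, 0.578, 0.420 and 0.122 in the same order, against testes 0.133, 0.0762, 0.111 and 0.00787, and against semen 0.213, 0.265, 0.0176 and −0.153. Those columns are shallower, with 7447278 counts in the spermatheca, 2105449 in testes and 283610 in semen, and the part of depth in these values was not tested. Of the leading 20 entries of each tissue, eggs and ovaries shared 19 for sense TEs, 19 for antisense TEs, 17 for sense genes and 18 for antisense genes.

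**Figure D1:**
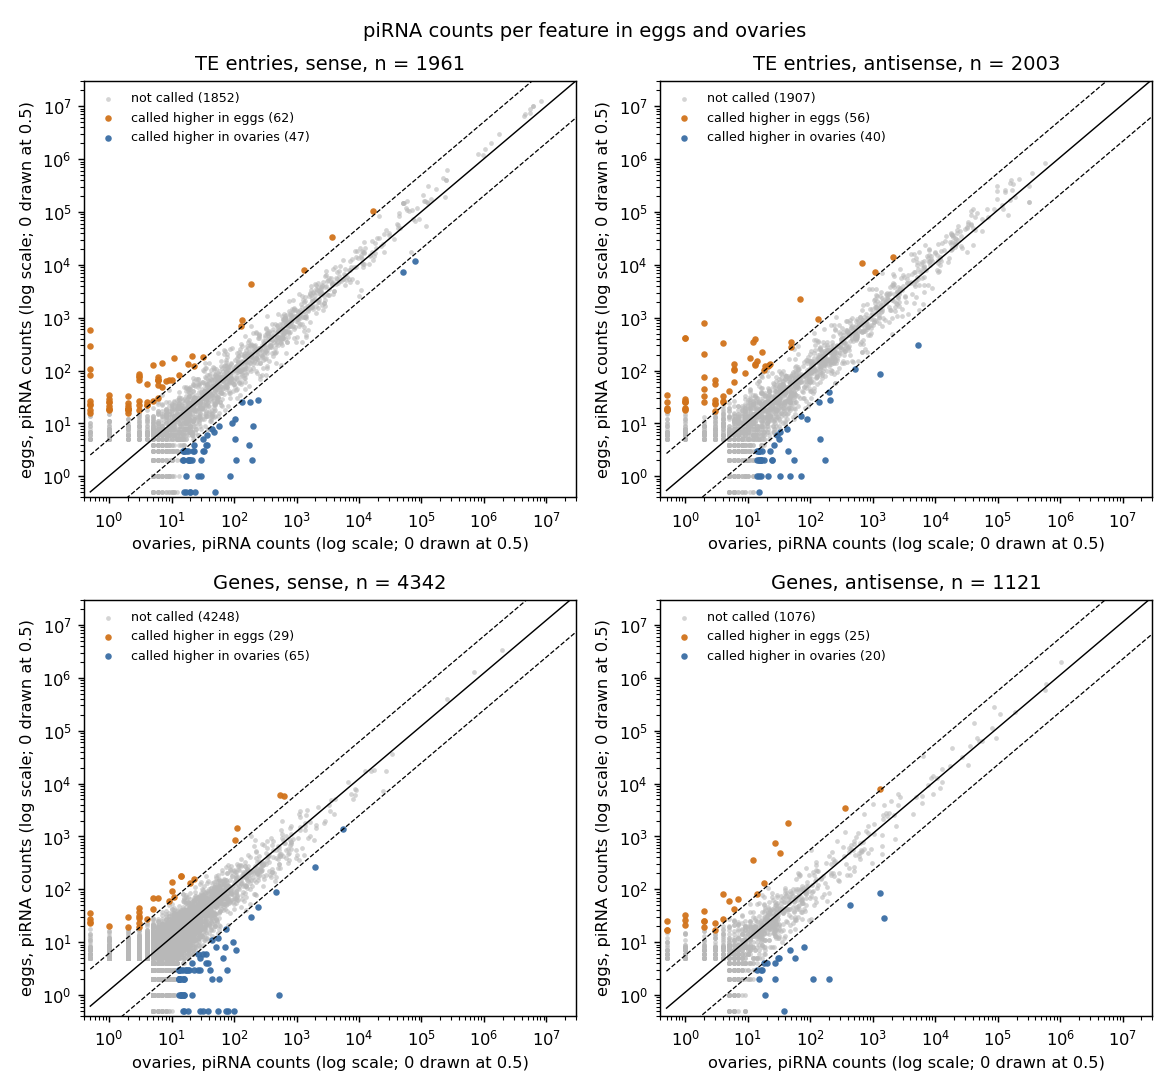
piRNA counts of every tested feature in ovaries (x axis) and eggs (y axis), both on log scales with 0 drawn at 0.5, for TE entries and genes in each direction. The solid line marks equal levels after TMM scaling, the dashed lines mark 5-fold differences and coloured points are features beyond them: 62 and 47 of 1961 for sense TEs, 56 and 40 of 2003 for antisense TEs, 29 and 65 of 4342 for sense genes, and 25 and 20 of 1121 for antisense genes, higher in eggs and in ovaries respectively.

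To compare single features, counts of each table were scaled with the trimmed mean of M-values (TMM), which sets the level by the bulk of the features, not by the few that hold most reads. A fold is the scaled ratio of the 2 columns, and a feature was called when it exceeded 5, with counts under 3 raised to 3 for the call. The choice of scale shifts every difference in a table together. Scaling to table totals instead would lower every egg-over-ovary log2 difference by 0.61 for sense TEs, 0.40 for antisense TEs, 0.44 for sense genes and 0.45 for antisense genes. The entries with the most counts stood apart from the bulk on this scale. The 90 sense entries with a mean count of at least 10000 had a median log2 difference of 0.55 on the TMM scale, and the 1376 with a mean under 100 one of −0.16. The chromosome 16 LARDs stood at 0.43 to 0.70 on the TMM scale and between −0.18 and 0.09 by totals, so that no direction can be given for them.

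Few features differed strongly. For sense TEs, 62 of 1961 entries (3.16%) were called higher in eggs and 47 (2.4%) higher in ovaries. For antisense TEs, 56 of 2003 (2.8%) were higher in eggs and 40 (2%) in ovaries. For sense genes, 29 of 4342 (0.668%) were higher in eggs and 65 (1.5%) in ovaries, and for antisense genes 25 of 1121 (2.23%) and 20 (1.78%). By table totals the split moved towards ovaries, to 29 and 124 sense TEs, 36 and 89 antisense TEs, 17 and 177 sense genes, and 14 and 35 antisense genes. About 67% of the features of each table, from 66.7% to 67.2%, lay within 2-fold. Most calls rested on small counts, since 94 of the 109 called sense TE entries had a mean count under 100. The called features also carried little of the total. The sense TEs called higher in eggs held 0.195% of that table in eggs and 0.0439% in ovaries, and those higher in ovaries 0.257% in ovaries and 0.0244% in eggs.

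Most of the largest differences in antisense TE piRNAs lay in a run of TRIMs on chromosome 10. TRIMs are terminal-repeat retrotransposons in miniature, short elements without coding sequence. The 4 adjoining entries ms24398 to ms24401 lie on the plus strand at 8120494 to 8133842, inside the gene model GB54295. ms24398 held 420 antisense counts in eggs and 1 in ovaries (fold 388, Clopper-Pearson interval 69.2 to 15349). ms24400 held 804 and 2 (fold 371, 102 to 3069). ms24399 held 335 and 4 (77.3, 29.9 to 285) and ms24401 208 and 2 (96.0, 26.2 to 798). In the sense direction the run was nearly empty in both tissues, with 2 to 9 counts per entry in eggs and at most 1 in ovaries. GB54295 itself held 1807 antisense counts in eggs and 44 in ovaries (fold 36.3, 26.9 to 50.1), which may be largely the same reads, since reads lying on a TE and on a gene can stand in both tables.

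TRIMs as a group leaned towards eggs in the antisense direction. Of 138 tested, 18 (13.04%) were called higher in eggs and 4 (2.90%) in ovaries, against 2.8% and 2% of all antisense entries, with a median log2 difference of 0.47 against −0.08 for all antisense entries tested, medians that any scaling moves together. These 18 lay in 15 windows of 50 kb on 10 chromosomes or scaffolds, and their egg counts ran from 17 to 804 with at most 19 in ovaries. Together they held 3333 counts in eggs, 109 in ovaries, 23 in testes, 7 in semen and 29 in the spermatheca. The gap between eggs and ovaries follows from the call. These are raw sums from columns of very unlike depth, so they do not rank the other tissues. All TE counts were 88755771 in eggs, 57645559 in ovaries, 1152010 in testes, 133767 in semen and 6030354 in the spermatheca. Other members were ms1464 with 399 against 13, ms18325 on chromosome 7 with 353 against 12 and ms5370 on chromosome 2 with 221 against 17. The last of these lie inside GB42484 and GB50800, whose own antisense counts were 353 against 12 (25.97, 14.7 to 50.7) and 744 against 27 (24.3, 16.6 to 37.2). In the sense direction TRIMs showed no such lean, with 4 of 189 (2.12%) called higher in eggs and 8 (4.23%) in ovaries, against 3.16% and 2.4% of all sense entries. The TRIM group was singled out after its values were seen.

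A second set of differences lay on the scaffold GroupUn20 between 80589 and 84724, where almost no read of ovaries came from the minus strand. The 7 entries there held 275404 plus-strand counts in eggs and 167580 in ovaries, but 1301 minus-strand counts in eggs and 1 in ovaries. The LARD ms39520 held 588 sense counts in eggs and 0 in ovaries, which is at least 193-fold against the floor of 3 counts, while its antisense counts were 173003 and 96118. ms39527, an entry without a category, held 293 and 0 sense counts (at least 96.0-fold) and 53760 and 22978 antisense counts. The DNA transposon entry DNA-1_CQ, annotated on the opposite strand, held 417 antisense counts in eggs and 1 in ovaries (fold 385, 68.7 to 15240), against 17093 and 12216 in the sense direction. The next entry, ms39528, had 31240 plus-strand counts in eggs and 36032 in ovaries, and 1 and 0 on the minus strand. A minor-strand signal was thus present in eggs over entries where the major strand was present in both tissues.

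Other sense TE entries higher in eggs were the DNA transposon entry ms44526 on GroupUn141, with 4358 counts against 185 (23.2, 19.99 to 27.0), and the LARD ms24045 on chromosome 10 with 129 against 5 (25.4, 10.6 to 79.4). Of the 692 LARDs tested for sense counts, 38 (5.49%) were called higher in eggs and 18 (2.60%) in ovaries, against 3.16% and 2.4% of all sense entries, while the median log2 difference of the LARDs, −0.15, was below the −0.02 of all. On GroupUn143 the LARD ms44581, at 47466 to 47496, held 34341 sense counts in eggs and 3685 in ovaries, a fold of 9.16. On the same scaffold ms44576, at 42869 to 43026, was 2.22-fold higher in ovaries in the antisense direction. ms44581 and the antisense entry ms46340 on GroupUn281, with 2312 counts against 69 (fold 30.9), were named after their values were seen. Neighbouring entries of 1 scaffold could therefore differ in opposite directions.

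Among entries higher in ovaries, ms42287 on GroupUn69 held 195 sense counts against 2 in eggs (99.2, 27.1 to 825), and the gene model that contains it on the opposite strand, GB55255, held 198 antisense counts against 2 (112, 30.6 to 932). QUETZAL, a Mariner/TC1 entry on chromosome 13, held 107 against 2 (54.4, 14.7 to 455) and lies opposite to GB54771, with 112 antisense counts against 2 (63.4, 17.2 to 530). In the same way ms32474 and the gene GB42260 around it on chromosome 14 both held 1324 antisense counts in ovaries and 87 in eggs. Each of these pairs may hold the same reads and is best read as 1 locus. The remaining entries named by size were ms883, with 172 sense counts against 4, ms40831 with 200 against 9 and ms5154 with 103 against 5. In the antisense direction they were ms51581 with 172 against 2, ms913 with 145 against 5, ms50842 with 5209 against 301 (18.7, 16.7 to 21.1) and ms47989 with 210 against 28.

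Seen in windows of 50 kb, the loci that give rise to TE piRNAs were nearly the same in the 2 tissues. Entries annotated at several chromosomes or on both strands, with 2.52% of TE counts in eggs and 2.67% in ovaries, were left out. The window at 250001 to 300000 of chromosome 16 held 79.3% of the remaining counts in eggs and 78.4% in ovaries. It took 8 windows to reach 90% of the counts in eggs and 9 in ovaries, and 7 of these were shared. Of the 115 windows with at least 1000 counts in each tissue, 103 in eggs and 99 in ovaries had over 90% of their counts on a single strand. This held for 98 windows in both tissues, and in all 98 the strand was the same, plus in 59 of them. Of 445 windows with at least 100 counts in either tissue, 359 (80.7%) lay within 2-fold, 8 were over 5-fold higher in eggs and 7 in ovaries.

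Families of TEs that could be named by their similarity to known elements differed in their shares. They covered 1074 of the 34760 entries and a small part of the TE counts. That part was 3378009 of 88755771 in eggs and 2154510 of 57645559 in ovaries. Over all classed TEs the retrotransposon share was nearly the same, 89.9% and 89.3%. Over these families, class I elements, the retrotransposons, took 32.4% of counts in eggs (Wilson interval 32.3 to 32.4) and 21.7% (21.6 to 21.8) in ovaries. Mariner/TC1 elements, small cut-and-paste DNA transposons, were the largest family in both, with 48.6% in eggs and 63.2% in ovaries. Leaving out the leading entry of each tissue, piggyBac-10_SM in eggs and AMARI in ovaries, gave 55.1% and 56.7%, whereas leaving out both entries in both tissues, a choice made after the data were seen, gave 49.9% and 62.1%. R2, a LINE-like element that inserts into the genes for large ribosomal RNA, took 22.5% in eggs and 13.9% in ovaries. PiggyBac took 18.2% and 14.2%, BelPao, an LTR retrotransposon group, 5.67% and 4.13%, and the I group, which here includes the R1 names, 2.56% and 1.74%. The LTR families Gypsy and Copia took 1.03% and 1.15%, and 0.626% and 0.734%. The paper's own family percentages are smaller for R2 and larger for Mariner/TC1 and PiggyBac in both tissues. There too, R2 and PiggyBac are higher in eggs and Mariner/TC1 in ovaries. The paper found a significant class I against class II difference from ovaries in semen only, not in eggs. Why the percentages differ was not tested.

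**Figure D2:**
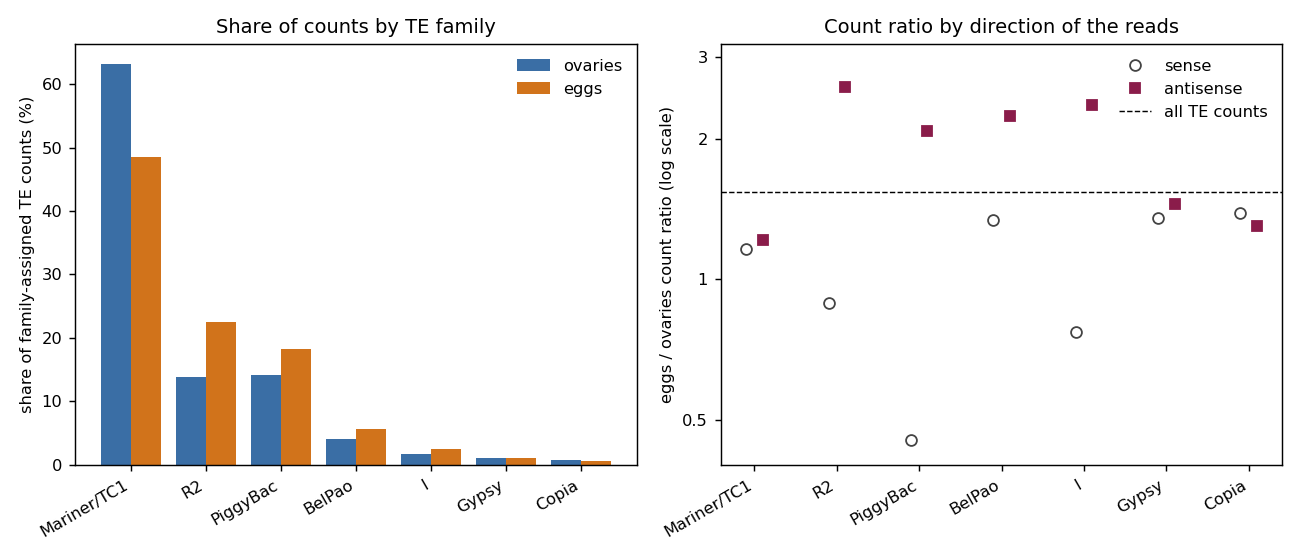
Left, bars give the share of family-assigned TE counts (percent) taken by each of 7 families in ovaries (blue) and eggs (orange); right, points give the ratio of egg to ovary counts on a log scale for sense (open circles) and antisense (filled squares) reads, with the ratio of all TE counts, 1.54, as a dashed line. Antisense ratios of R2, PiggyBac, BelPao and I lie between 2.08 and 2.58, whereas their sense ratios lie between 0.452 and 1.34.

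The larger shares of R2, PiggyBac, BelPao and I in eggs lay in antisense reads. The ratio of egg to ovary counts was 2.58 for antisense R2 reads and 0.891 for sense R2 reads, where the ratio of table totals was 1.43 for antisense and 1.55 for sense TE counts and the TMM scale 1.08 and 1.02. For PiggyBac the ratios were 2.08 and 0.452, for I 2.36 and 0.773 and for BelPao 2.24 and 1.34. The antisense ratios lie above both scales, and the sense ratios of R2, PiggyBac and I below both, while that of BelPao lies between them. For Mariner/TC1 the ratios were 1.218 and 1.16, below the totals and above the TMM scale, so that its direction depends on the scale. The antisense share was 97.0% in ovaries and 98.95% in eggs for R2, and 95.5% and 98.98% for PiggyBac.

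Not all copies of a family followed its total. Of the 8 R2 entries, 4 had a ratio above the 1.54 of all TE counts and 4 below, over a range of 0.795 to 3.18. The R2Amel entry with most counts in eggs, which has 4 parts on several scaffolds, held 307413 counts in eggs and 96529 in ovaries, and another of 12 parts held 254831 and 100219, the most in ovaries. The gene model GB43325 on GroupUn98, which overlaps a part of the first, held antisense counts of 278169 in eggs and 85959 in ovaries (fold 2.86, 2.84 to 2.88). PiggyBac rested mainly on piggyBac-10_SM, which made up 65.4% of the family in eggs and 52.5% in ovaries. Without it the ratio of the rest was 1.46. Without its leading entry each, R2 kept a ratio of 2.22 and I of 2.68, and BelPao one of 1.63. Of 107 Mariner/TC1 entries with at least 100 counts, 27 lay above 1.54 and 80 below.

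An R1 copy on GroupUn98 had the highest ratio of egg to ovary counts, 15.99, among the entries of these 7 families with at least 100 counts. R1 elements, like R2, insert into ribosomal RNA genes. R1D_NGi, at 18354 to 18443 on the minus strand, held 10978 antisense counts in eggs and 670 in ovaries (fold 15.1, 14.0 to 16.4). The adjoining R1E_NGi, at 17927 to 18353, held 14161 and 2137 (6.12, 5.84 to 6.40), while its sense counts were 156 and 288. Directly beside them, Crack-28_BF, a Jockey-type LINE, held 324 antisense counts in eggs and 702 in ovaries. These entries were chosen with their values known, and near-identical copies of ribosomal insertions may share reads.

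Among genes, the same models led in both tissues and none of the leading genes passed the 5-fold threshold. GB50405 on chromosome 4 took 61.6% of sense gene counts in eggs (3366562) and 59.9% in ovaries (1952927). GB54361 on chromosome 16 followed with 23.9% and 21.0%. GB45793 followed with 404561 and 254127 counts. The next genes held far fewer, GB50868 with 36981 and 33305, GB46156 with 18412 and 17305, and GB45794 with 17086 and 26993. In the antisense direction GB54876 on chromosome 6 held 2029357 counts in eggs and 1041278 in ovaries, or 40.2% and 31.9%. GB53587 and GB45793, both on unplaced scaffolds, took 15.1% and 11.5% in eggs and 18.0% and 17.3% in ovaries. GB55024 held 229759 and 186105, and GB54360 203585 and 107055. Thus 1 gene held over 50% of sense gene piRNAs in each tissue, and 2 antisense genes reached that share in eggs and 3 in ovaries.

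The gene with the largest gap in favour of ovaries was Vg, which encodes vitellogenin, the precursor of the main yolk protein. Vg (GB49544, chromosome 4) held 532 sense counts in ovaries and 1 in eggs, a fold of 657 (117 to 26001), and no antisense count in either. The spermatheca, also dissected from queens, held 3518. No TE entry lies inside this model. In these tables, sense reads of the piRNA length could be piRNAs or pieces of an abundant mRNA, which cannot be told apart. Mblk-1, a transcription factor first known from the mushroom bodies of the honey bee brain, held 106 against 7 (18.7, 8.77 to 47.6). The other ovary-higher sense genes named by size were GB53930 with 1965 against 267, GB52592 with 184 against 30 and GB48675 with 244 against 47.

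In favour of eggs, the leading named gene was cad. It encodes Caudal, a homeobox transcription factor that patterns the posterior of insect embryos. cad (GB48966, chromosome 1) held 1429 sense counts in eggs and 110 in ovaries (10.5, 8.66 to 12.9). Its antisense counts were 2641 and 735, a fold of 3.17 (2.92 to 3.45) that did not reach the threshold. In testes and semen cad held no count in either direction. In the spermatheca, where sense gene counts totalled 863269 against 5461039 in eggs, it held 194 sense and 135 antisense counts. The antisense share of its counts was thus 64.9% in eggs (63.4 to 66.4) and 87.0% in ovaries (84.5 to 89.2), and TE entries inside it held at most 4 counts. Also higher in eggs were GB56013 with 6006 sense counts against 538 (9.04, 8.27 to 9.89) and 24 against 25 antisense, GB50364 with 137 against 10, GB54896 with 177 against 14 and GB56004 with 175 against 14.

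Some genes were called in both directions. Of 688 genes tested in both, 3 were higher in eggs both ways. GB46757 (chromosome 5) held 5815 sense counts in eggs and 621 in ovaries (7.58-fold) and 3506 and 364 antisense counts (8.50-fold, 7.63 to 9.50), with no count on the TE entry inside it. GB48462 (chromosome 14), with no TE entry inside it, held 845 and 104 sense (6.58-fold) and 485 and 33 antisense (12.97-fold, 9.11 to 19.1). The third, GB42427 on chromosome 7, held 30 and 2 sense and 65 and 7 antisense, and lies beside GB42484 of the TRIM group. The only gene higher in ovaries both ways was GB55255, with 14 sense counts against 1.

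Other antisense genes higher in ovaries were GB53284 on GroupUn113, with 1513 counts against 29 in eggs (59.1, 41.0 to 88.5), and GB46813 on GroupUn64 with 430 against 50 (9.74, 7.26 to 13.3). The sense counts of GB53284 were 463 and 396, so that its antisense share was 76.6% in ovaries and 6.82% in eggs. Called genes overlapped TE entries to differing degrees. Among sense calls, 21 of the 29 higher in eggs (72.4%) and 32 of the 65 higher in ovaries (49.2%) overlapped an entry by at least 1 base, against 48.4% of all genes tested. Among antisense calls the shares were 22 of 25 and 14 of 20 (70%), against 72.9% of all.

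Gene lists of the germline and the early embryo gave few calls, read against the 0.668% and 1.5% of all sense genes. Only members with a gene name as RefSeq symbol could be counted. Of the 15313 genes, 468 had a name and not a LOC number, so each list covers a small part of its class. Of the germline genes, aub, a PIWI protein, held 87 sense counts in eggs and 69 in ovaries, vas, an RNA helicase of the germ plasm, 52 and 50, and nanos, a translational repressor, 3 and 7. None of these 3 was called, and their median log2 difference was −0.25. Of 4 sex determination genes, 1 was called, Dsx, whose sex-specific transcripts direct male or female differentiation, with 27 sense counts in eggs and 0 in ovaries (at least 7.29-fold). A LARD inside this gene model, ms11564, held 25 counts in eggs, so the call may rest on reads of that entry. The median of the 4 was 1.218, with Fem at 11 and 1 and Csd at 7 and 4. The splicing factor gene tra2 held 18 and 8. Of 6 embryo patterning genes tested, only cad was called, and the median log2 difference of the 6 was 0.56 against 0.02 over all sense genes. The pair-rule gene eve held 114 and 33 (2.80-fold, 1.88 to 4.26), the gap genes Hb and Kr 6 and 2, and 5 and 1, and the Hox genes Ubx and Antp 10 and 7, and 5 and 1. In the antisense direction aub held 37 and 32, and 0 of 1 germline, 0 of 2 sex determination and 0 of 2 patterning genes tested were called, against the 2.23% and 1.78% of all antisense genes. The 8 gene models with a glutamate receptor name held almost nothing, with 4 sense counts in eggs and 5 in ovaries. Their antisense counts were 37 and 22, of which Glurb models held nearly all. The paper reports glutamate receptor signalling terms as enriched among piRNA target genes of ovaries and eggs, set against semen and testes. These few models do not address that result.

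At the sex determination locus of chromosome 3, antisense reads were abundant in both tissues and their ratio between the tissues differed along the map. The csd gene decides sex in the honey bee by whether its alleles differ, and fem, which it controls, carries the female state. In both tissues the reads of the locus lay almost entirely antisense to the plus-strand genes. From left to right the antisense counts in eggs and ovaries were 21354 and 17462 for GB47018, 12478 and 8514 for Fem, 8257 and 12107 for GB47021, 1598 and 2344 for Csd and 896 and 2234 for GB47023. The count ratio was 1.223 at GB47018 and 1.47 at Fem, 0.682 at both GB47021 and Csd, and 0.401 at GB47023. GB47019 held only 11 and 6. Together the list held 0.884% (Wilson interval 0.876 to 0.892) of antisense gene counts in eggs and 1.31% (1.29 to 1.32) in ovaries, against 0.656% in the spermatheca, 3 counts in testes and 4 in semen.

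**Figure D3:**
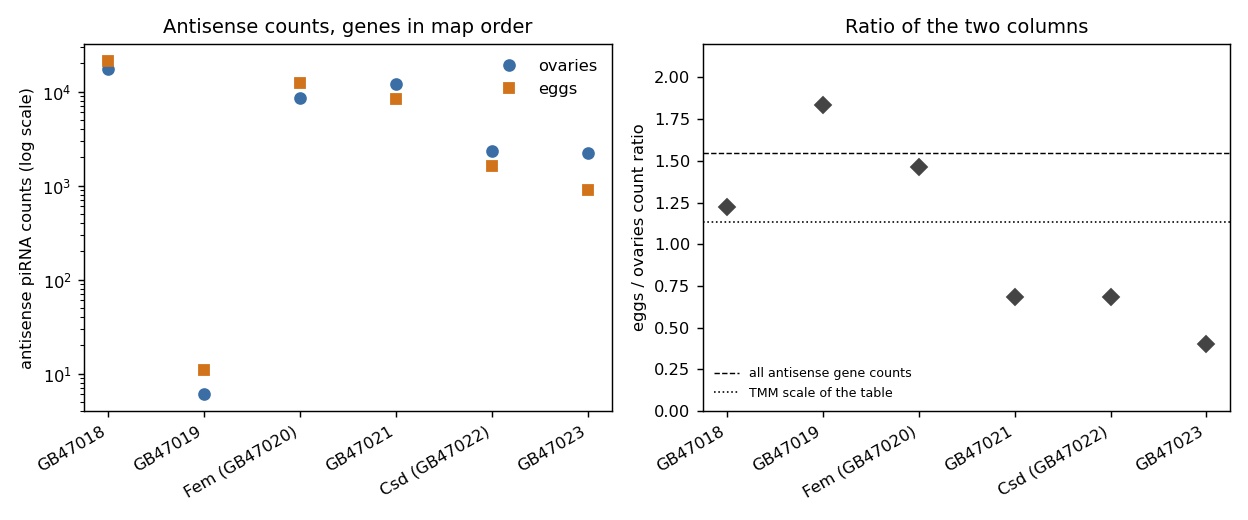
Antisense piRNA counts (left, log scale) in ovaries (blue circles) and eggs (orange squares), and the ratio of egg to ovary counts (right), for the 6 plus-strand genes of the locus in map order. The ratio falls from 1.47 at Fem to 0.401 at GB47023; the dashed line marks the ratio of all antisense gene counts (1.54) and the dotted line the TMM scale (1.13).

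None of the 6 antisense genes tested at the locus was called, where 2.23% of all antisense genes were called higher in eggs and 1.78% in ovaries, and their median log2 difference was −0.31 against 0.04 over all antisense genes. GB47021, Csd and GB47023 were lower in eggs on either scale, with folds of 1.66 (1.61 to 1.71), 1.66 (1.56 to 1.77) and 2.82 (2.61 to 3.06) in favour of ovaries, whereas Fem and GB47018 stood at log2 0.37 and 0.11 in favour of eggs on the TMM scale and at −0.08 and −0.34 by totals. The egg counts of Fem lay largely on a short stretch, the entry ms8531 of 151 bases at 11122441 to 11122591, which was picked after its values were seen. It held 7717 counts in eggs and 2936 in ovaries in the direction antisense to Fem, a ratio of 2.63. If all of these were also counted on Fem, the rest of the gene held 4761 and 5578, a ratio of 0.854, closer to that of Csd. The minus-strand gene of the locus, GB47045, held 228 sense counts in eggs and 279 in ovaries and no antisense count.

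Genes beside the chromosome 16 LARDs differed among themselves. GB40295, at 286742 to 286864, held 137013 antisense counts in eggs and 41759 in ovaries, a fold of 2.90 (2.86 to 2.93). GB40294, which begins at 288598, held 73847 and 92727, a fold of 1.42 (1.41 to 1.44) in favour of ovaries. Both overlap the same LARD, ms35561. Further along, GB40293 and GB40292 held 18497 and 12733, and 2441 and 1682 antisense counts, and GB40291 5883 and 6075. The remaining genes of the list held little. GB40317 held 115 sense counts in eggs and 118 in ovaries, with 7 and 6 antisense. GB40296 held 5 and 4 sense counts, with 0 and 1 antisense. In the sense direction GB40293 and GB40292 held fewer counts in eggs, with 80 against 216 (3.33-fold) and 15 against 56 (4.61-fold), and 0 of 4 sense and 0 of 6 antisense genes tested of the list were called, against 0.668% and 1.5% of all sense and 2.23% and 1.78% of all antisense genes.

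The balance of sense and antisense reads of single features was mostly the same in eggs and ovaries. Over 973 TE entries with at least 100 counts in each tissue, the median absolute difference in antisense share was 0.242 percentage points, and over 338 genes it was 0.816. Of these entries, 420 were over 90% antisense in both tissues and 392 under 10% in both, and none went from over 90% to under 10%. A difference over 20 points was seen in 12 TE entries with the higher antisense share in eggs and 10 in ovaries, and in 9 genes each way.

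**Figure D4:**
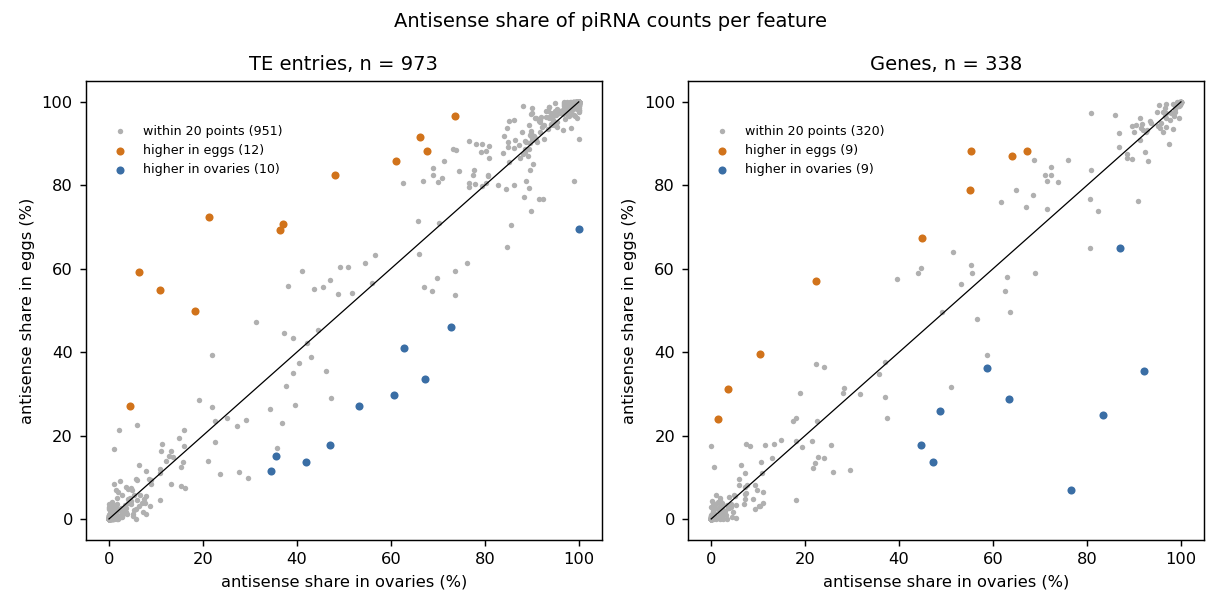
Antisense share of the counts of each feature (percent) in ovaries (x axis) and eggs (y axis), for 973 TE entries and 338 genes with at least 100 counts in each tissue; the line marks equal shares. Coloured points differ by over 20 percentage points, 12 and 10 TE entries and 9 and 9 genes, higher in eggs (orange) and in ovaries (blue) respectively.

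Among TE entries, the TRIM ms19006 on chromosome 7 was 59.1% antisense in eggs (52.0 to 65.9) and 6.42% in ovaries (3.91 to 9.84), and the DNA transposon entry ms17716 72.5% and 21.2%. Mariner1_BT, an entry of many copies with 33675 counts in eggs and 18548 in ovaries, was 69.4% and 36.4% antisense. In the other direction ms45933 was 33.6% antisense in eggs and 67.3% in ovaries. Among genes, Foxp (GB40150), a forkhead transcription factor, was 25% antisense in eggs (17.3 to 34.1) and 83.5% in ovaries (75.6 to 89.6), from 112 and 121 counts. Nrx-1 (GB52279), which encodes the synaptic adhesion protein neurexin, was 88.3% (86.4 to 89.9) and 67.3% (63.1 to 71.3), from 1347 and 526 counts. These features were singled out because they exceeded the 20-point difference, so their values are descriptions.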

How the data were processed

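Small RNA libraries were made from Trizol extracts with the Illumina TruSeq Small RNA kit and gel selection. The authors mapped reads to the Amel 4.5 assembly with CLC Genomics, removed reads of other known RNAs, kept 26 to 31 nt as piRNAs and counted them over TE entries and whole gene models, introns included, with featureCounts, by direction. The submitters' processing notes also name Bowtie 1.2.3. The deposited values are raw counts, 1 pooled column per tissue. Whether a column is a sum or a mean of libraries, and how reads with several places were counted, is not given in the sources used here. All coordinates are those of the deposited tables. The number of per-sample columns left unmapped was 0.

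In each table, the comparison took features reaching 5 counts in eggs or in ovaries, after TMM scaling (edgeR 4.0.16, R 4.3.3), and called at a fold over 5 with a count floor of 3. The scaling step was tested on simulated counts in which the scale did not change with abundance. The shift between features with many and few counts seen here was therefore not covered. Exact or Wilson 95% intervals came from SciPy 1.17.1, tables from pandas 2.3.3 and numpy 2.4.6 on Python 3.11.15, figures from matplotlib 3.10.9. Tests that need replicates could not be run. Alternatives were table totals, DESeq2 1.42.0 size factors, unscaled counts, no filter, a minimum of 100 counts, a call by the interval, shares without their leading feature and windows of 100 kb.

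The text names, per table, the 5 features with most counts in eggs and in ovaries, the 5 largest folds in each direction among features with at least 100 counts in the higher tissue, all genes of the csd-locus and chromosome 16 lists, and called members of the other lists; others are said to be chosen after their values were seen. The comparison, lists and members were chosen with earlier results of these data known. Gene symbols came from RefSeq (Amel_HAv3.1, names only) and gave a RefSeq entry for 11390 of 15313 genes. No sequences were used here.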

Additional observations from a re-analysis of the deposited data

How the results depend on the processing

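No paired analysis was possible because each tissue has 1 pooled column without replicate numbers; for the same reason no library could be left out. DESeq2 size factors and no filter kept all 8 counts of calls within 1.5-fold. Table totals gave, higher in eggs and in ovaries, 29 and 124 sense TEs, 36 and 89 antisense TEs, 17 and 177 sense genes, and 14 and 35 antisense genes. Unscaled counts gave 54 and 41 sense genes. A minimum of 100 counts, which tests fewer features, gave 14 and 12, 22 and 11, 9 and 6, and 6 and 5 in that order of tables, and a call by the interval, which is stricter by construction, 19 and 10, 23 and 9, 7 and 16, and 7 and 7. Of the 87 named folds, every called one kept its call under the 3 other scalings. Uncalled ones moved in 25 cases with DESeq2, 39 with totals and 37 unscaled. The called ones were mostly picked as the largest folds of their table, so a shift of scale could hardly undo them. Called features named outside this set, such as GB51201 at 5.01-fold, were not included, and those near the threshold can lose their call. Without its leading feature, the TE share was 87.9% in eggs and 88.3% in ovaries, the sense share of TE counts 87.9% and 86.9% and that of gene counts 29.4% and 28.7%, the retrotransposon share 88.3% and 87.5%, the Mariner/TC1 share 55.1% and 56.7%, the chromosome 16 LARD share 73.7% and 72.5% and the csd-locus share 1.48% and 1.92%. The Mariner/TC1 difference thus shrank because piggyBac-10_SM was left out of eggs and AMARI of ovaries; with both left out of both tissues, an alternative added after seeing the data, the shares were 49.9% and 62.1%. Features with under 100 counts, most of the calls, have wide intervals at this depth, and without replicates no difference can be set against the spread between libraries.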

Other observations

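Some features that differed between eggs and ovaries were more abundant still in other tissues; they were picked after their values were seen. GB51201 on chromosome 6 was called higher in ovaries for sense counts, with 5586 against 1376 in eggs (5.01-fold, 4.73 to 5.32), and held 55192 in testes and 42580 in the spermatheca. Conversely, 20 antisense LARD entries were called higher in eggs, and 6 of them were grouped because they held over 300 counts in testes. These 6, with 103 to 155 counts against 13 to 23 in ovaries, held 323 to 434 in testes and 282 to 332 in the spermatheca. Their near-equal counts may reflect shared reads among copies, which was not tested. Other LARDs called higher in eggs had no testes count, such as ms6963 and ms21368, with 170 and 7424 antisense counts in eggs. The 18 antisense TRIMs higher in eggs included 11 with no count in testes. The testes column is far shallower, with 1152010 TE counts against 88755771 in eggs, so a low egg count leaves little to expect there.

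Opposite changes also lay on GroupUn141. There the sense counts of the DNA transposon entry ms44526 were 23.2-fold higher in eggs, while the window from 50001 to 100000 held 15680 TE counts in eggs and 81829 in ovaries. Most of the window's counts lay on the LARD ms44550, with 11841 sense counts in eggs and 77925 in ovaries. At the start of chromosome 3, adjoining entries inside GB56004 changed the same way. The sense counts of ms6964, on the plus strand, and the antisense counts of ms6963, on the minus strand, were both 170 in eggs and 11 in ovaries. Both are counts of plus-strand reads, and the same reads may stand in both, which was not tested.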
